A study of Mus musculus with 9 samples.

Results

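The tumor suppressor p53 (gene Trp53), its inhibitors Mdm2 and Mdm4, and 7 genes that p53 activates (Cdkn1a, Ccng1, Phlda3, Zmat3, Aen, Trp53inp1 and Gadd45a) were followed through the activation of CD4+ T cells. These 10 genes were taken by symbol from the 55487 genes of the expression table. The cells were wild-type C57BL/6 splenic CD4+ T cells, purified by negative selection according to the labels, and the study's methods give the mice as females 6 to 7 weeks of age. In 3 groups of 3 RNA-seq libraries, cells were kept in medium for a time the labels do not give (medium), were cultured for 24 h with Abs to CD3 (3 µg/ml) and to CD28 (2 µg/ml) (stimulated), or were cultured for 24 h with these Abs plus TRAIL, a tumor necrosis factor family ligand, at 10 µg/ml (TRAIL-treated). The Abs engage the TCR and a costimulatory receptor, and the study asked how TRAIL alters the response to them. TRAIL in the absence of the Abs was not analysed here.

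p53 is a transcription factor that stays scarce as a protein in unstressed cells because Mdm2, a ubiquitin ligase that p53 itself switches on, marks it for degradation, while Mdm4 binds and blocks its activation domain. DNA damage, ribosomal stress or oncogene activity breaks this grip, and p53 then activates genes of cell cycle arrest, repair, metabolism and death. In T cells the cell cycle inhibitor p21, made by Cdkn1a, is also known to rise through TCR signals, and an mRNA level says nothing of the amount or activity of the p53 protein.

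p53 binds a 10-base sequence, the p53 half-site, usually as a pair. The half-site consensus was searched by its letters, with no mismatch, in the promoter windows of RefSeq (GRCm38.p6, the 250 bases before and 50 bases after each annotated start). The consensus is its own reverse complement, so both strands were read together. Of the 10 members, 8 had a window. The consensus was found in 6 of these 8 members (75.0%), namely Trp53, Mdm2, Cdkn1a, Ccng1, Aen and Gadd45a, and in 9.6% of the 27025 genes with a window, or 8.36% of all 32851 windows. Among the 9934 genes with a window that were also tested for expression, the share was 8.0%. A pair of half-sites at most 13 bases apart, both with no mismatch, was present in 24 windows (0.0731%), 1 of them the upstream window of Cdkn1a. Pairs with a mismatch in either half-site were not counted. The members were named for being p53 targets, so this share is a description. The bases before the start follow for the 6 genes with a match, with the half-site in capitals. For Aen the first 20 bases after its first start, where its match lies, are included.
Cdkn1a (chr17:29090729-29090978, plus strand): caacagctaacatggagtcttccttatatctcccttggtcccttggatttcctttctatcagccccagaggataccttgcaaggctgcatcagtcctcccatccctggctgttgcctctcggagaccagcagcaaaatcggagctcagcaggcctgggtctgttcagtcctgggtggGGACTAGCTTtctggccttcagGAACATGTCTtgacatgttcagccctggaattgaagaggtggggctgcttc
Mdm2 (chr10:117710759-117711008, minus strand): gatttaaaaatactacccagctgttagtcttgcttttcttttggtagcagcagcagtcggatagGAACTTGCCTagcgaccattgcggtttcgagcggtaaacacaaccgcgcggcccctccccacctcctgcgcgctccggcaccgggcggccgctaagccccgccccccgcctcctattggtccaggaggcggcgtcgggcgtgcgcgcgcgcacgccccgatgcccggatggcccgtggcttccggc
Trp53 (chr11:69580109-69580358, plus strand): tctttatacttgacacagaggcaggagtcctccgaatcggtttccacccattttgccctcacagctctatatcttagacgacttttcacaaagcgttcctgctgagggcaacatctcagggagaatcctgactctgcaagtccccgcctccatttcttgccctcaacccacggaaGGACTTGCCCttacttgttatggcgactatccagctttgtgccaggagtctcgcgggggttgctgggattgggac
Ccng1 (chr11:40755287-40755536, minus strand): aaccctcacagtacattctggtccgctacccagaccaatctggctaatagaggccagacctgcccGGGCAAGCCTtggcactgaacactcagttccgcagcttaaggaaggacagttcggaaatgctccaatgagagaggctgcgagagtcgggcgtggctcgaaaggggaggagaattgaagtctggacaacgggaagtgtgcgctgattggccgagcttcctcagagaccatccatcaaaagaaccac
Gadd45a (chr6:67037408-67037657, minus strand): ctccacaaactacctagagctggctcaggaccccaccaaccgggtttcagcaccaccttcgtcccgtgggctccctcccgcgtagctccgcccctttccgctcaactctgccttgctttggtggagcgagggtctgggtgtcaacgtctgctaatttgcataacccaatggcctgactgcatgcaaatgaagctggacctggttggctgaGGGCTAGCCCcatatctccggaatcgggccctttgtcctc
Aen (chr7:78895677-78895946, plus strand): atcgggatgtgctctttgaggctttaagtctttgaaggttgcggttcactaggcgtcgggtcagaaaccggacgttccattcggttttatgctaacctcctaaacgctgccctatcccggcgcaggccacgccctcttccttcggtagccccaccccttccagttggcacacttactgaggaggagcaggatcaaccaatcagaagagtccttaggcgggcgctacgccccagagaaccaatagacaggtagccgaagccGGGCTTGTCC

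In Cdkn1a the 2 half-sites found, GGACTAGCTT and GAACATGTCT, began 73 and 51 bases before the upstream annotated start and were 12 bases apart. The 10 bases directly after GAACATGTCT, TGACATGTTC, missed the consensus only at the first of them, so the search did not mark them. With 1 mismatch allowed, GAACATGTCT would thus have had a partner with no gap. The other annotated start of Cdkn1a lay 2841 bases past the beginning of GAACATGTCT, and its own window held no match. The half-site GAACTTGCCT of Mdm2 began 186 bases before the start and GGGCAAGCCT of Ccng1 began 185 bases before it. The 10 bases directly before GGGCAAGCCT in Ccng1, AGACCTGCCC, also missed the consensus at only 1 base and were not marked. The matches of Trp53 (GGACTTGCCC) and Gadd45a (GGGCTAGCCC) began 75 and 40 bases before the start. Aen had 1 match, GGGCTTGTCC, that began 10 bases past the first of its annotated starts and 121 bases before the other. The windows of Mdm4 and Phlda3 held none, which says only that these letters were not found there, and Zmat3 and Trp53inp1 were not searched. The Phlda3 window ended in GAACATGT, which fits the beginning of the consensus, so a match across that edge would have been missed. A match is not evidence of binding, which was not measured in these libraries.

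**Figure D1:**
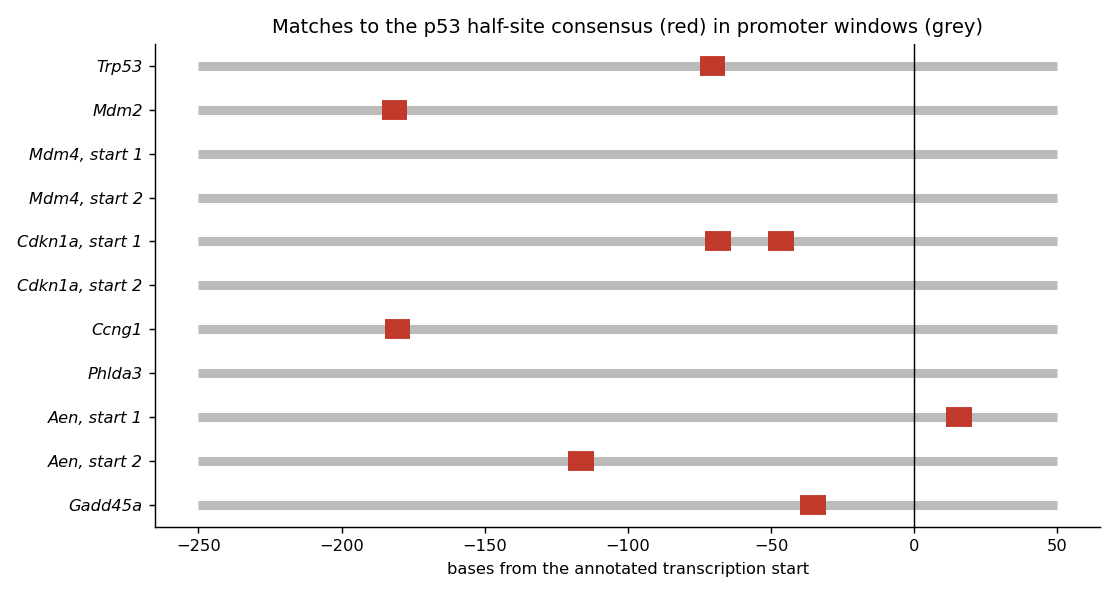
Matches to the p53 half-site consensus in the promoter windows of 8 member genes. The x axis gives the distance in bases from the annotated transcription start, grey bars are the windows searched and red blocks are the matches, of which Cdkn1a had 2 in its upstream window and Mdm4 and Phlda3 had none.

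Expression was read as TPM, for which the reads of a gene are corrected for transcript length and every library is set to an equal total, so levels can be compared between genes. Groups were compared with limma on log2(TPM + 1) over the 15536 genes that reached 1 TPM in 3 or more libraries. A gene counted as called (higher or lower) when its Benjamini-Hochberg adjusted p was under 0.05 and its log2 fold change was 1 or more in size. All 10 members passed this filter, Phlda3 only through its stimulated libraries, so that its difference from them was partly set by the filter. An exact test of 3 libraries against 3 cannot go below a p of 0.1, so no such test was run, and the p-values given for single genes are those of limma. Nothing in the labels ties a library to its own mouse or culture, and the p-values measure the spread between these libraries, which may be technical. The stimulated libraries serve in 2 of the comparisons, and so do the medium libraries.

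The libraries held 13691 to 14909 genes at or above 1 TPM, and the T cell markers Cd2, Cd3d, Cd3e, Cd3g, Cd4 and Thy1 together made up 2390 to 2580 TPM in medium, 2350 to 2570 TPM in stimulated and 2280 to 2460 TPM in TRAIL-treated libraries. Within this sum Cd2 was called higher (1.09) and Cd3g lower (-1.04) on stimulation. Markers of other splenic cells were present and moved with the groups. The 6 B cell markers summed to 1780 to 1820 TPM in medium, 145 to 158 TPM in stimulated and 748 to 817 TPM in TRAIL-treated libraries. The 8 macrophage and monocyte markers summed to 1440 to 1580, 53.1 to 59.4 and 1170 to 1310 TPM in the same order, and the 6 erythroid markers to 2080 to 2530, 24.8 to 39.6 and 610 to 660 TPM. In the stimulated group the neutrophil marker Retnlg was at the lowest value of the table. The 4 neutrophil markers summed to 459 to 756, 24.6 to 39.8 and 307 to 404 TPM, the 5 dendritic cell markers to 49.7 to 54.4, 9.58 to 13.1 and 30.5 to 33.4 TPM, and the 6 CD8 T and NK cell markers to 319 to 397, 314 to 377 and 120 to 124 TPM. The first stimulated library stood apart from its 2 replicates for Mdm4 and for several p53 regulators, among them Huwe1 (40.56 against 134.4 and 132.2 TPM) and Hipk2 (11.88 against 51.53 and 49.52 TPM). Without it, 5 members were called on stimulation, 3 higher and 2 lower, and 6 with TRAIL against stimulated cells, as with it. In bulk RNA, fewer cells of a type and less of their RNA per cell cannot be told apart.

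On stimulation Cdkn1a, Phlda3 and Aen rose and the targets Trp53inp1 and Gadd45a and the inhibitor Mdm4 fell, while Ccng1, Zmat3, Trp53 and Mdm2 were not called. Against medium, 6 of 10 members were called, where 31.9% of all genes were. Of the members, 3 rose, where 12.4% of all genes did, and 3 fell, where 19.5% of all genes did. With the fold threshold removed, 7 of 10 members and 68.7% of all genes passed. The members' median log2 fold change was -0.004, beside -0.151 over all genes tested. The members' calls were 3 higher and 1 lower after median-of-ratios scaling, 4 higher and 2 lower after quantile normalization and 2 of each with a pseudocount of 5. The split of all calls into higher and lower depended on the scaling, and 38.8% of the called genes were higher as deposited, 47.4% after median-of-ratios scaling and 52.1% after quantile normalization.

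TRAIL lowered Cdkn1a, Phlda3, Zmat3 and Aen and raised Trp53inp1 and Gadd45a relative to stimulated cells. These 6 of 10 members were called, where 30.9% of all genes were, 16.6% higher and 14.3% lower. At any fold, 9 of 10 members and 67.1% of all genes passed. The members' median was -0.43, beside 0.01 over all genes.

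Between TRAIL-treated cells and medium, only Cdkn1a and Gadd45a of the 10 members were called, both higher, where 4.62% of all genes were called, 2.49% higher and 2.13% lower. At any fold, 5 of 10 members and 32.6% of all genes passed. The members' median was -0.25, beside -0.18 over all genes, and 53.9% of the called genes were higher as deposited, 73.8% after median-of-ratios scaling and 70.6% after quantile normalization. Gadd45a was the 1 member called higher in TRAIL-treated cells than in both other groups, where 1.35% of all genes were.

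**Figure D2:**
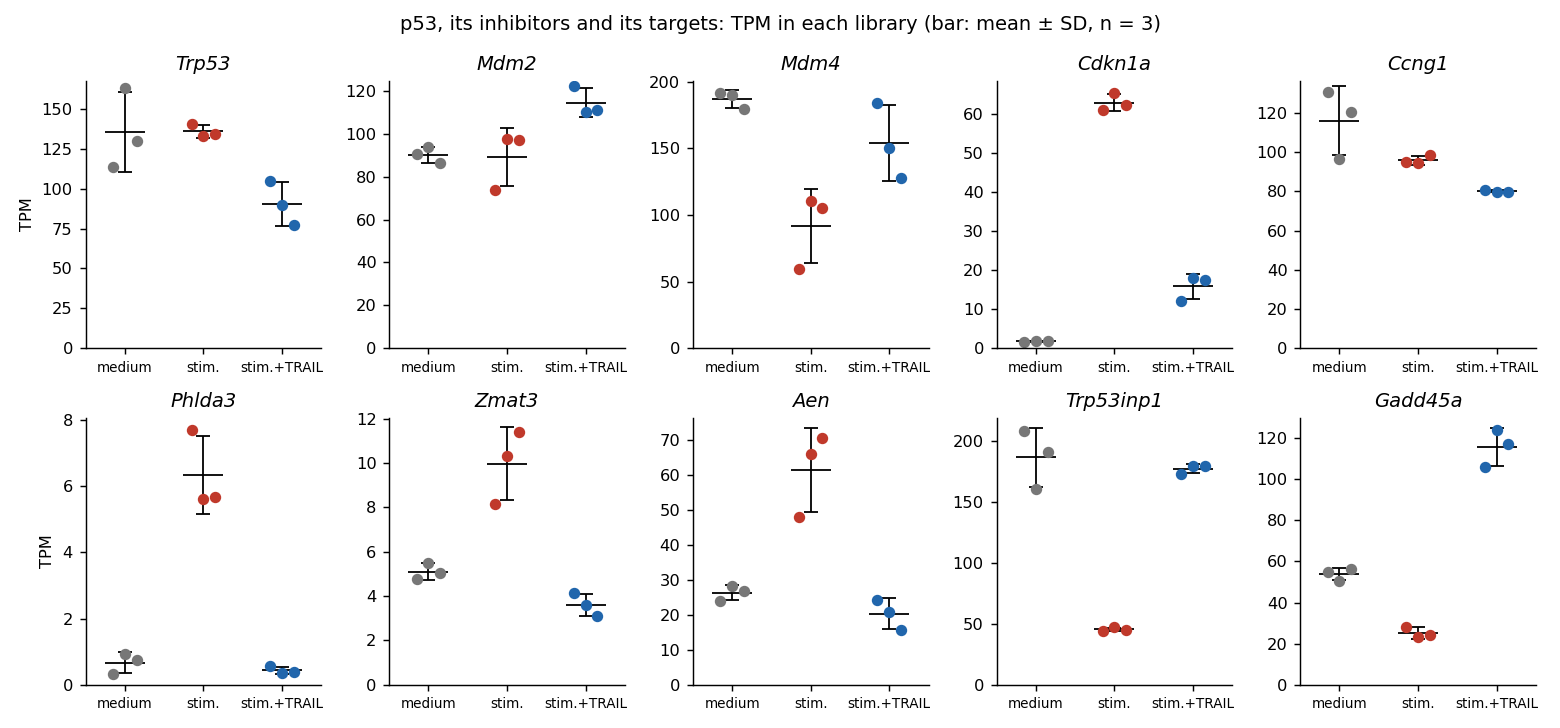
TPM of each member (y axis, from 0, a separate scale per gene) in the 9 libraries. Points are libraries, the long bar is the group mean and the whiskers are the SD of 3 libraries. Cdkn1a, Phlda3, Zmat3 and Aen were highest in stimulated cells, Trp53inp1 and Gadd45a lowest there, and Gadd45a was highest with TRAIL.

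Trp53 (ENSMUSG00000059552, GRCm38 chr11:69580359-69591873, plus strand) was an abundant transcript in every group. The medium libraries held 113.9, 163.2 and 129.9 TPM, the stimulated libraries 140.4, 133.0 and 134.4 TPM and the TRAIL-treated libraries 104.6, 89.47 and 77.23 TPM. The stimulated values lay inside the range of the medium values, and the TRAIL-treated values lay below both groups in every library. The means were 135.7 ± 25.16, 135.9 ± 3.955 and 90.43 ± 13.71 TPM (SD, n = 3). On the log2(TPM + 1) scale the difference between stimulated and medium cells was 0.02 (SE 0.14, 95% interval -0.30 to 0.34, limma adjusted p = 0.918), and its sign changed with the scaling. With TRAIL the level was 0.665 times that of stimulated cells, a log2 difference of -0.59 (SE 0.14, limma adjusted p = 0.00429), under the fold threshold. The difference from medium was -0.57 (SE 0.14, limma adjusted p = 0.0138), also under it.

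Mdm2 (ENSMUSG00000020184, chr10:117688875-117710758, minus strand), the ubiquitin ligase that marks p53 for degradation and is itself a p53 target, was not called in any comparison. It measured 90.8, 93.76 and 86.32 TPM in medium, 73.67, 97.49 and 96.88 TPM in stimulated and 122.2, 110.3 and 111.2 TPM in TRAIL-treated libraries. The first stimulated library was the lowest of the 9, and the TRAIL-treated libraries were the 3 highest. The log2 difference between stimulated and medium cells was -0.03 (95% interval -0.29 to 0.23, limma adjusted p = 0.857), and its sign changed under median-of-ratios scaling and without the first stimulated library. TRAIL-treated cells differed from stimulated cells by 0.37 (SE 0.12, limma adjusted p = 0.0183) and from medium by 0.34 (SE 0.12, limma adjusted p = 0.0493), both under the fold threshold. With TRAIL, Mdm2 was thus above and Trp53 below its stimulated level in every library.

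Mdm4 (ENSMUSG00000054387, chr1:132959484-133030561, minus strand), the relative of Mdm2 that blocks p53 without degrading it, had the highest mean of the 10 genes in medium. Its levels were 191.9, 190.4 and 179.7 TPM in medium, 59.42, 110.3 and 105.6 TPM in stimulated and 184.5, 150.0 and 127.6 TPM in TRAIL-treated libraries. All stimulated libraries lay below all libraries of both other groups, and the first of them was far below its 2 replicates. Stimulation lowered Mdm4 to 0.49 times its medium mean, a log2 fold change of -1.07 (SE 0.22, limma adjusted p = 0.00139). Without the first stimulated library the value was -0.79, under the fold threshold, as it was after median-of-ratios scaling (-0.92). With TRAIL the level was 1.68 times the stimulated one (0.78, SE 0.22, limma adjusted p = 0.00925), which missed the fold threshold. The difference of TRAIL-treated cells from medium was -0.30 (95% interval -0.78 to 0.19, limma adjusted p = 0.324), and their libraries overlapped.

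Cdkn1a (ENSMUSG00000023067, chr17:29090976-29100727, plus strand) encodes p21, the cyclin-dependent kinase inhibitor through which p53 halts the cell cycle, and it had the largest fold range of the members. The medium libraries held 1.579, 1.78 and 1.933 TPM, the stimulated libraries 61.17, 65.33 and 62.37 TPM and the TRAIL-treated libraries 12.09, 17.99 and 17.38 TPM. The 3 groups were fully apart, with TRAIL-treated cells in the middle. Stimulation raised the mean 35.7-fold, from 1.764 ± 0.1771 to 62.96 ± 2.139 TPM (SD, n = 3), a log2 fold change of 4.53 (SE 0.15, limma adjusted p = 2.7e-09). TRAIL lowered it to 0.251 times the stimulated level (-1.95, SE 0.15, limma adjusted p = 1.1e-06). The mean of 15.82 ± 3.244 TPM with TRAIL (SD, n = 3) was still 8.97-fold that in medium (2.59, SE 0.15, limma adjusted p = 1.9e-06).

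Ccng1 (ENSMUSG00000020326, chr11:40748552-40755311, minus strand) encodes cyclin G1, which brings a phosphatase to Mdm2 and so acts back on p53. It measured 130.9, 96.68 and 120.7 TPM in medium, 94.88, 94.39 and 98.59 TPM in stimulated and 80.63, 79.76 and 79.65 TPM in TRAIL-treated libraries. The TRAIL-treated libraries were the lowest and lay close together, whereas the medium libraries were spread widely and overlapped with stimulated cells. No comparison was called. The log2 differences were -0.26 (limma adjusted p = 0.0577) for stimulated against medium cells, -0.26 (limma adjusted p = 0.061) for TRAIL-treated against stimulated cells and -0.52 (SE 0.11, limma adjusted p = 0.00641) for TRAIL-treated cells against medium.

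Phlda3 (ENSMUSG00000041801, chr1:135766119-135769136, plus strand) encodes a small lipid-binding protein that keeps the survival kinase AKT off the membrane. It was near 0 in medium, at 0.3273, 0.9299 and 0.7561 TPM, reached 7.689, 5.613 and 5.671 TPM in stimulated libraries and measured 0.5574, 0.3659 and 0.3843 TPM with TRAIL. Stimulated libraries stood apart, and medium and TRAIL-treated libraries overlapped. The stimulated mean was 9.42-fold that of medium (2.14 on the log2(TPM + 1) scale, SE 0.17, limma adjusted p = 1.8e-06). With TRAIL it was 14.5-fold lower than in stimulated cells (-2.34, SE 0.17, limma adjusted p = 9.9e-07). At these low levels the fold change depended on the pseudocount, and with a pseudocount of 5 the rise was 0.99, under the threshold. The difference of TRAIL-treated cells from medium was -0.20 (95% interval -0.59 to 0.18, limma adjusted p = 0.395).

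Zmat3 (ENSMUSG00000027663, chr3:32334792-32366014, minus strand), an RNA-binding zinc finger protein that alters splicing, measured 4.766, 5.512 and 5.024 TPM in medium, 8.174, 10.3 and 11.42 TPM in stimulated and 4.117, 3.589 and 3.11 TPM in TRAIL-treated libraries. The groups did not overlap, with stimulated cells highest and TRAIL-treated cells lowest. Zmat3 fell with TRAIL, by a log2 fold change of -1.25 (SE 0.14, limma adjusted p = 2.7e-05), which was -0.79 with a pseudocount of 5. Between stimulated and medium cells it differed by 0.84 (SE 0.14, limma adjusted p = 4.6e-04), under the fold threshold.

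Aen (ENSMUSG00000030609, chr7:78895854-78911209, plus strand) encodes a nuclease that degrades DNA and RNA during p53-dependent death. Its levels were 24.04, 28.11 and 26.87 TPM in medium, 47.9, 65.89 and 70.59 TPM in stimulated and 24.36, 20.84 and 15.57 TPM in TRAIL-treated libraries. Stimulated cells were above both other groups, which overlapped. Aen rose 2.33-fold on stimulation (1.18, SE 0.18, limma adjusted p = 2.1e-04) and was 3.03-fold lower with TRAIL (-1.56, SE 0.18, limma adjusted p = 2.8e-05). The difference of TRAIL-treated cells from medium was -0.38 (95% interval -0.79 to 0.02, limma adjusted p = 0.131).

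Trp53inp1 (ENSMUSG00000028211, chr4:11156431-11174379, plus strand), a stress protein that takes part in autophagy and promotes the phosphorylation of p53, followed the opposite course. It stood at 207.9, 160.2 and 190.7 TPM in medium, 44.33, 46.95 and 45.23 TPM in stimulated and 172.7, 179.1 and 179.3 TPM in TRAIL-treated libraries. The stimulated libraries were about equal to each other and far below the rest, and the TRAIL-treated values lay inside the medium range. Trp53inp1 fell 4.09-fold on stimulation (-2.002, SE 0.10, limma adjusted p = 6.3e-08) and rose 3.89-fold with TRAIL (1.94, SE 0.10, limma adjusted p = 9.2e-08). The remaining difference from medium was -0.06 (95% interval -0.29 to 0.16, limma adjusted p = 0.659), and its sign changed after median-of-ratios scaling.

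Gadd45a (ENSMUSG00000036390, chr6:67035096-67037457, minus strand), a stress sensor that acts in growth arrest, DNA repair and p38 signaling, was the member that TRAIL raised above both other groups. It measured 54.85, 50.43 and 56.13 TPM in medium, 28.32, 23.15 and 24.24 TPM in stimulated and 105.9, 123.9 and 117.3 TPM in TRAIL-treated libraries. The 3 groups were fully apart. The means were 53.81 ± 2.99, 25.24 ± 2.729 and 115.7 ± 9.102 TPM (SD, n = 3). Stimulation lowered it by a log2 fold change of -1.07 (SE 0.11, limma adjusted p = 8.7e-06), a call that was lost with a pseudocount of 5 (-0.96), median-of-ratios scaling (-0.91) or quantile normalization (-0.95). TRAIL raised it 4.58-fold over stimulated cells (2.16, SE 0.11, limma adjusted p = 5.4e-08) and 2.15-fold over medium (1.09, SE 0.11, limma adjusted p = 7.7e-05).

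The low level of Mdm4, Trp53inp1 and Gadd45a in stimulated cells went with low sums of B cell, macrophage, neutrophil, dendritic cell and erythroid markers, of which 28 of 29 were called lower on stimulation. Among them Xcr1 and Ly6g passed the filter on low values only through their medium libraries, so that their difference was partly set by it. The part of these cells in the 3 genes was not tested. With TRAIL, 24 of the 29 markers were called higher and 1 lower than in stimulated cells, and 10 were called lower than in medium. The CD8 T and NK cell markers were mixed in the comparisons with stimulated cells. Against medium all 6 were called lower with TRAIL, where 2.13% of all genes were. Their log2 fold changes ran from -1.10 (Cd8b1) to -2.12 (Ncr1). On stimulation Ncr1, Klrb1c and Klre1 were called lower (-3.49, -2.65 and -2.44) and Cd8a, Cd8b1 and Gzma were not called (0.20, -0.41 and 0.63). With TRAIL against stimulated cells Cd8a and Gzma were called lower (-1.62 and -2.13) and Ncr1 and Klrb1c higher (1.37 and 1.08), while Cd8b1 and Klre1 were not called (-0.68 and 0.84). The 1 marker of the 29 that was called lower with TRAIL was the dendritic cell gene Zbtb46 (-1.63). Cdkn1a, Phlda3, Zmat3 and Aen also fell with TRAIL, and the part of these cells in them was not tested either.

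**Figure D3:**
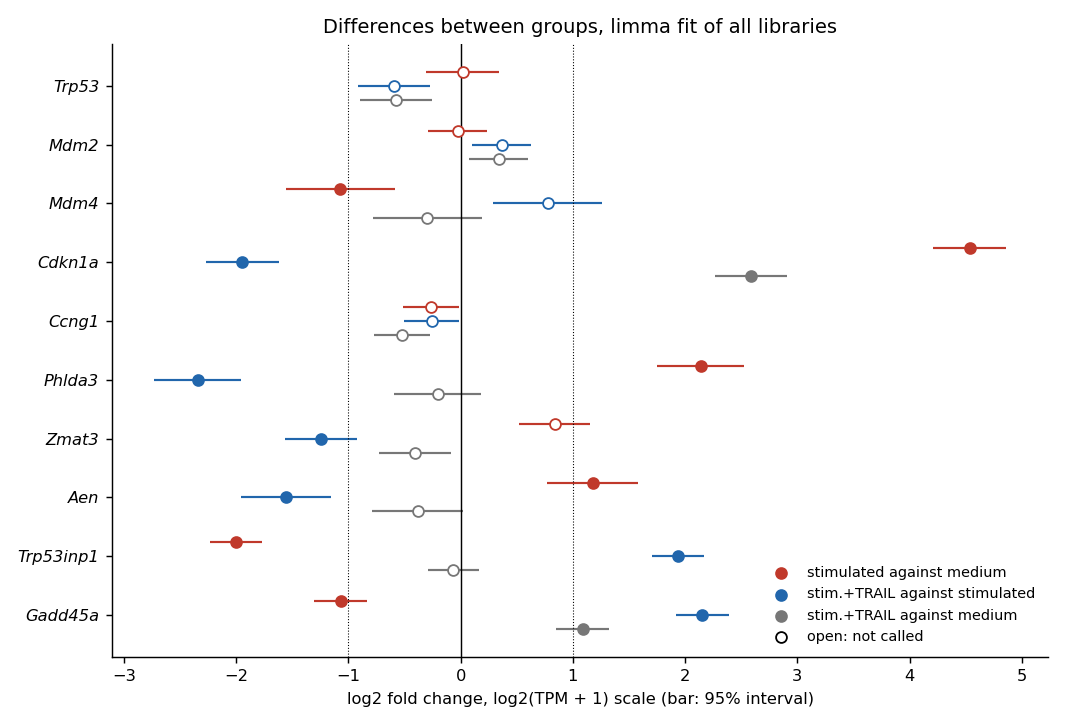
Log2 fold change of each member on the log2(TPM + 1) scale (x axis) in the 3 comparisons, with 95% intervals from limma. Filled points were called changed, open points were not, and dotted lines mark the fold threshold. Cdkn1a lay at 4.53 for stimulated against medium cells, and Gadd45a and Trp53inp1 lay near 2 for TRAIL-treated against stimulated cells.

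In medium the order of levels was Mdm4, Trp53inp1, Trp53, Ccng1, Mdm2, Gadd45a, Aen, Zmat3, Cdkn1a and Phlda3, on the TPM scale. The libraries of neighbours among the first 4 overlapped, and from Ccng1 downward each gene stood apart from the next. In stimulated cells Trp53 led, Ccng1, Mdm4 and Mdm2 followed with overlapping libraries, and Cdkn1a had climbed to the level of Aen. In TRAIL-treated cells Trp53inp1 and Mdm4 led with overlapping libraries, followed by Gadd45a and Mdm2, which overlapped too, then Trp53 and Ccng1. Phlda3 was last in every group.

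The genes whose course over the 9 libraries was most like that of a member were found by the root mean square difference of log2(TPM + 1), each gene centred on its own mean, among 11343 genes whose mean level was 5 TPM or more. For Cdkn1a they were Ccr8 (0.26), Ccl4 (0.28) and Ifng (0.30), a chemokine receptor, a chemokine and the cytokine interferon gamma. In the order medium, stimulated, TRAIL-treated, their mean levels were 6.45, 133 and 30.7 TPM (Ccr8), 5.28, 158 and 47.2 TPM (Ccl4) and 9.19, 216 and 41.3 TPM (Ifng). For Trp53 the 3 nearest genes were Maz (0.077), Cers2 (0.089) and Tsc22d4 (0.094). For Mdm2 they were Homer1 (0.073), Atg4b (0.074) and Cisd2 (0.076), and for Ccng1 2610301B20Rik (0.047), Btbd1 (0.052) and Ttc33 (0.062). These distances are smaller than those of Cdkn1a, whose own range was far wider.

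A wider list of 30 other p53 targets, of which 28 passed the filter (Ak1 and Eda2r did not), was read in the same way. On stimulation 10 of the 28 were called, 4 higher and 6 lower, where 31.9% of all genes were called, with a median log2 fold change of -0.31 beside -0.15 over all genes. After median-of-ratios scaling 7 were higher and 6 lower. Among those that rose was Sesn2, a sestrin that restrains mTORC1, from 6.569 ± 0.2432 to 70.75 ± 6.937 TPM (SD, n = 3). Its relative Sesn1 fell instead, from 126.8 ± 10.07 to 17.06 ± 0.7529 TPM (SD, n = 3). The log2 fold changes were 3.24 and -2.82 (limma adjusted p = 2.5e-09 and 2.4e-09). Plk3 and Rps27l each rose by 1.42 on the log2 scale. Btg2, an antiproliferative gene, the DNA damage recognition gene Ddb2 and the lipid transfer gene Pltp fell, with log2 fold changes of -2.03, -1.48 and -1.47 (Pltp -0.78 with a pseudocount of 5, not called).

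With TRAIL 15 of the 28 differed from stimulated cells, 9 higher and 6 lower, where 30.9% of all genes were called, 16.6% higher and 14.3% lower. The median was 0.49, beside 0.01 over all genes. The largest rises among named genes were those of Gdf15, a stress-induced secreted factor, and Btg2. Gdf15 measured 0.764, 0.7533 and 0.5871 TPM in stimulated and 22.11, 36.29 and 40.06 TPM in TRAIL-treated libraries, a log2(TPM + 1) difference of 4.27 (SE 0.21, limma adjusted p = 5.4e-08). Btg2 went from 36.98 ± 3.479 to 440.4 ± 40.73 TPM (SD, n = 3; log2 fold change 3.54). The kinase gene Plk2 and Sesn1 rose by 2.97 and 2.66 on the log2 scale. Rps27l, Sesn2, Pidd1 and the translesion polymerase gene Polk fell, with log2 fold changes of -2.27, -2.20, -1.201 and -1.18. With a pseudocount of 5 the calls of Pidd1 (-0.86), Polk (-0.89), Perp (-0.65), Pltp (0.64) and Rap2b (0.78) were lost, and 7 genes of the list were higher and 3 lower. Gdf15 passed the filter on low values only through its TRAIL-treated libraries, so that its difference was partly set by the filter, and Perp, which was called in both comparisons with stimulated cells, passed only through those and lost both calls with a pseudocount of 5 (0.71 on stimulation). Pmaip1, which encodes the BH3-only protein Noxa, was at 16.07 ± 0.3473 TPM in stimulated and 58.89 ± 7.678 TPM in TRAIL-treated cells (SD, n = 3). Bax went the other way, from 161.8 ± 20.25 TPM in stimulated to 71.44 ± 2.921 TPM in TRAIL-treated cells (SD, n = 3). Its log2 fold change was -1.16, and -0.94 after quantile normalization, not called.

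Against medium, 7 of the 28 were called with TRAIL, all higher, where 2.49% of all genes were, with a median of -0.13 beside -0.18 over all genes, and 10 were lower at an unadjusted p under 0.05. They were Gdf15 (4.08), Plk3 (2.89), Pmaip1 (1.75), Plk2 (1.67), Tnfrsf10b (1.56), Btg2 (1.51) and Sesn2 (1.04, and 0.76 with a pseudocount of 5, not called). Tnfrsf10b encodes the mouse TRAIL receptor and is itself a p53 target. It measured 3.868, 4.664 and 2.921 TPM in medium, 7.001, 9.398 and 8.553 TPM in stimulated and 13.21, 14.14 and 11.89 TPM in TRAIL-treated libraries, with no overlap between groups. Perp, Bax and Tnfrsf10b were added to the named genes after their values were seen. Btg2 and Sesn2 had been named by rule for the other comparisons, and were added for this one in the same way. The half-site consensus was in the windows of 8 of the 24 genes of this list that had one (33.3%), Bax, Sesn1, Rps27l, Polk, Rap2b, Ei24, Ppm1d and Abhd4.

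**Figure D4:**
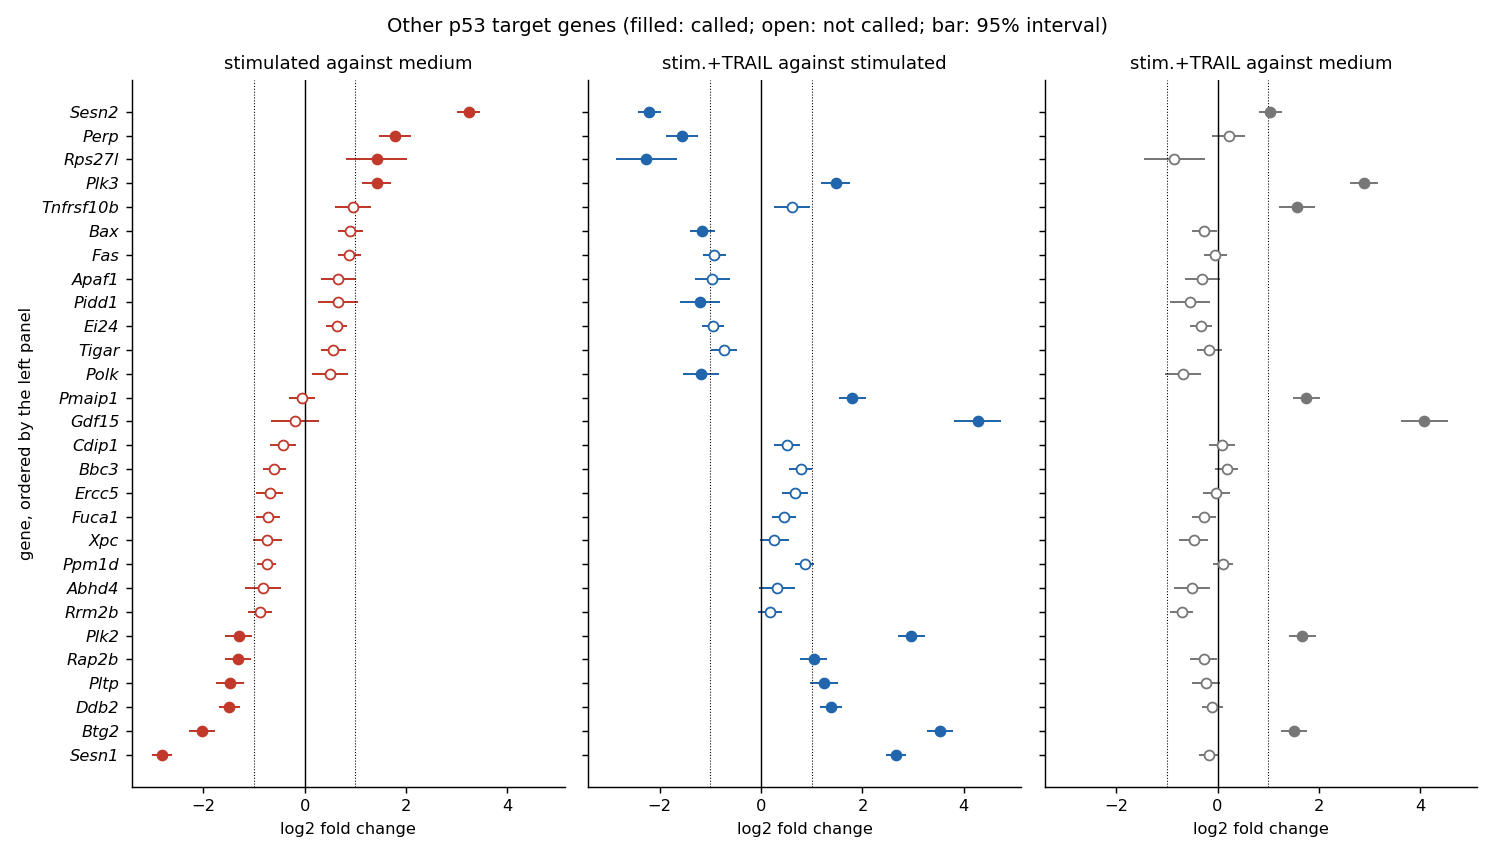
Log2 fold changes on the log2(TPM + 1) scale (x axis) of 28 other p53 targets (y axis, ordered by the change on stimulation) in the 3 comparisons. Bars are 95% intervals from limma, filled points were called changed and open points were not, and Gdf15 lay at 4.27 against stimulated cells and 4.08 against medium.

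Of 24 genes that regulate p53, 4 rose and 0 fell on stimulation by limma, where 12.4% of all genes rose and 19.5% fell. The median log2 fold change was -0.004, beside -0.15 over all genes, and 5 were higher and 6 lower at an unadjusted p under 0.05. Without the second or the third stimulated library 4 were called higher and 2 lower. Cdkn2a, 1 of the 4, passed the filter on low values only through its stimulated libraries, and its call was lost with a pseudocount of 5 (0.33) and without the first medium library (0.89). The DNA damage checkpoint kinase Chek1 went from 4.426 ± 0.8705 to 32.33 ± 1.033 TPM (SD, n = 3; log2 fold change 2.63, limma adjusted p = 4.6e-08), and the nucleolar protein gene Npm1 rose by 1.78 on the log2 scale. With TRAIL 4 were lower and 2 higher than in stimulated cells, where 14.3% of all genes were lower and 16.6% higher, and without the first stimulated library 6 were lower and 1 higher. Cdkn2a was again among the lower genes and lost its call with a pseudocount of 5 (-0.34). Chek1 and Npm1 fell, with log2 fold changes of -2.46 and -1.45, while the deacetylase gene Sirt1 and the acetyltransferase gene Crebbp rose, with 1.70 and 1.24. Crebbp was at 14.28, 37.23 and 35.66 TPM in the stimulated libraries, lowest in the one where Mdm4 was lowest, and without that library its log2 fold change was 0.81, under the threshold. Against medium 0 of the 24 were called with TRAIL by limma, where 4.62% of all genes were. The adjusted p alone was passed by 5 of them and by 32.6% of all genes, and 3 were higher and 4 lower at an unadjusted p under 0.05.

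Among close relatives of the members, several were called in the direction opposite to the member's. Of 14 relatives, 10 passed the filter, and Trp63, Trp73, Phlda2 and Zmat4 did not. Where Cdkn1a rose on stimulation, the p27 gene Cdkn1b fell from 177.4 ± 6.623 to 61.7 ± 3.575 TPM (SD, n = 3) and was at 246.6 ± 1.982 TPM with TRAIL. Where Gadd45a fell, Gadd45g rose from 23.87 ± 2.651 to 112.2 ± 13.11 TPM (SD, n = 3) and was at 22.44 ± 3.326 TPM with TRAIL, and Gadd45b was called only with TRAIL, 1.23 above medium and 1.11 above stimulated cells. Ccng2, the relative of Ccng1, had log2 fold changes of -1.73 on stimulation and 1.94 with TRAIL against stimulated cells. Trp53inp2 resembled Trp53inp1 in rising with TRAIL, by 3.32 over stimulated cells, but it was also 2.64 above medium. Phlda1 was 2.07 above medium with TRAIL, where Phlda3 was not called. The p57 gene Cdkn1c was 1.34 above medium with TRAIL (0.65 with a pseudocount of 5, not called), Zmat1 had a log2 fold change of -1.09 on stimulation, and the exonuclease gene Isg20, a relative of Aen, one of -1.09 with TRAIL against stimulated cells, where Aen fell too. In all, 4 of 10 relatives were called on stimulation (31.9% of all genes), 1 higher and 3 lower, with a median of 0.04. With TRAIL 8 were called against stimulated cells (30.9% of all genes), 6 higher and 2 lower, with a median of 1.24, and 4 against medium (4.62% of all genes), all higher, with a median of 0.34. The calls of Zmat1 and Isg20 were lost under quantile normalization (-0.76 and -0.98) and with a pseudocount of 5 (-0.73 and -0.99), and that of Zmat1 also after median-of-ratios scaling (-0.94). The half-site consensus was in 0 of the 10 relatives with a promoter window.

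Genes on the opposite strand overlap 3 members, and the strand setting of the authors' counting is not given in the sources used here. The pseudogene Gm29257 within Mdm4 had mean levels, in the same order of groups, of 0.762, 1.22 and 1.01 TPM. AC167363.2 over Cdkn1a had 0.02, 0.14 and 0.238 TPM, and E230016M11Rik over Gadd45a had 2.28, 0.953 and 2.38 TPM. Each was a small part of the level of its partner in every group.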

How the data were processed

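Gene expression was measured by RNA-seq in splenic CD4+ T cells, in 3 groups of 3 libraries taken from the sample labels. The submitters' processing notes name Trimmomatic 0.36, HISAT2 2.1.0, SAMtools 1.2, StringTie 2.1.2 and DESeq2. They list GRCh38 as the build, the study's methods give GRCm38, and the loci of 10 of 10 members match the GRCm38 annotation GENCODE M21. The authors deposited 1 table of TPM values, which keep no read totals, so depth and counting error are unknown and the 3 libraries of a group are the only measure of error. Which program made the TPM values and whether strand was used are not given in the sources used here.

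Here the values were transformed as log2(TPM + 1), genes that reached 1 TPM in fewer than 3 libraries were dropped, and the 3 groups were fitted together over 9 libraries in limma 3.58.1 under R 4.3.3 (lmFit followed by eBayes, trend on). The p-values were adjusted by Benjamini-Hochberg over all 15536 genes. Fold changes on this scale understate the change of low genes. Promoter windows were RefSeq's (GRCm38.p6). Python 3.11.15 with pandas 2.3.3 and matplotlib 3.10.9 served for tables and plots.

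Every member was named, and from each fixed list (other p53 targets, regulators, relatives, and cell cycle genes repressed through the DREAM complex) up to 4 called genes per direction that reached 5 TPM in either group and whose libraries did not overlap, by size of change. For Trp53, Mdm2, Cdkn1a and Ccng1 the 3 most alike genes were named. Some genes that this rule names are not reported here. The members, lists and markers were chosen with earlier results of these data known. Alternatives varied the pseudocount, filter, scaling, variance trend, libraries in the fit, replicate block and fold threshold, and left out each library in turn.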

Additional observations from a re-analysis of the deposited data

How the results depend on the processing

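Of 570 values of single members under alternative settings, 546 kept their direction and their side of the threshold, 8 passed it only there, 7 lost it and 9 changed sign. The sign changes concerned differences near 0 that were not called. Stimulated against medium cells, Trp53 was -0.114 after quantile normalization and -0.099 to 0.159 with 1 library left out, and Mdm2 was 0.131 after median-of-ratios scaling and -0.094 to 0.106 with 1 library left out. With TRAIL against medium, Trp53inp1 was 0.118 after median-of-ratios scaling and -0.169 to 0.018 with 1 library left out. Without a fold threshold, 5 members were called with TRAIL against medium. With TRAIL 3 members then lay outside the range of both other groups, 2 higher and 1 lower. The share of all genes for that count is not given here, so it is only a description. The other p53 targets then had 26, 25 and 14 calls and the regulators 11, 11 and 5, for stimulated against medium, TRAIL against stimulated and TRAIL against medium, where 68.7, 67.1 and 32.6% of all genes passed. For the last of these, the regulators had 1 call after median-of-ratios scaling, 1 after quantile normalization, and 0 to 1 with 1 library left out (1 without the second TRAIL-treated library). Over all genes, pseudocounts of 0.1 and 5 gave 1167 and 332 calls with TRAIL against medium instead of 718, and a pseudocount of 5 gave 2946 and 2883 in the other comparisons instead of 4959 and 4800. Median-of-ratios scaling moved the median of all genes by 0.141, 0.021 and 0.161, and quantile normalization by 0.19, -0.061 and 0.139. Replicate numbers are not said to mark a shared mouse or day, and correlations of same-numbered libraries ran from -0.306 to 0.295. With a replicate block the calls over all genes were 4960, 4802 and 714, and 6, 6 and 2 members were called, as without it. TPM values carry no depth, which limits low genes such as Phlda3 most.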

Other observations

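p53 is known to repress cell cycle genes through p21 and the DREAM complex. Of 15 such genes, 2 were called higher and 1 lower on stimulation by limma, where 31.9% of all genes were called, with a median log2 fold change of 0.34 beside -0.15 over all genes. Chek1, which is also on the list of regulators, and the replication helicase gene Mcm5 rose, the latter from 48.4 ± 1.302 to 198.4 ± 23.72 TPM (SD, n = 3), and Ccnb2 fell by 1.04. The call of Ccnb2 was lost with a pseudocount of 5 (-0.79), after median-of-ratios scaling (-0.89) and quantile normalization (-0.77), under which 4 and 3 genes of the list were higher and 0 lower. With TRAIL 7 of the 15 were lower than in stimulated cells and 0 higher by limma (9 and 1 at an unadjusted p under 0.05), where 30.9% of all genes were called, with a median of -0.98 beside 0.01 over all genes. With a pseudocount of 5 the count was 4, and Bub1 (-0.76), Ccnb1 (-0.73) and Cdk1 (-0.91) were no longer called. Mcm5, the topoisomerase gene Top2a and the mitotic kinase gene Aurkb fell, with log2 fold changes of -2.32, -1.496 and -1.46. Against medium 0 were called by limma, where 4.62% of all genes were, while 6 of the 15 and 32.6% of all genes passed the adjusted p alone and 10 were lower at an unadjusted p under 0.05, with a median of -0.43 beside -0.18 over all genes. Top2a stood at 55.64 ± 9.342 TPM in medium, 109.3 ± 12.96 TPM in stimulated and 37.95 ± 2.037 TPM in TRAIL-treated cells (SD, n = 3), and Aurkb at 13.07 ± 1.698, 23.15 ± 1.881 and 7.821 ± 1.006 TPM. The half-site consensus was in the window of 1 of the 11 genes of this list that had one.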
